A study of Mus musculus with 17 samples.

Results

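In all, 10 genes of endogenous protease inhibitors were followed in ribosome-bound RNA of mouse corpus callosum: the alpha-2-macroglobulin family members A2m and Cd109, the serpins Serping1, Serpina3n, Serpinb1a and Serpine2, and the tissue inhibitors of metalloproteinases Timp1, Timp2, Timp3 and Timp4. These are 10 of the 58512 gene identifiers in the series, each has 1 row in all 17 libraries, and all 10 were chosen by their cuprizone against mock values at 5, 5.5 and 7 weeks. Those values are therefore given as a description, with no test.

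Proteases outside the cell cut matrix, complement and growth factor precursors, and inhibitors set how far that cutting goes. Alpha-2-macroglobulin traps proteases of several classes and is then cleared by the receptor Lrp1. Serpins are suicide substrates, mostly of serine proteases, and TIMPs block the active site of matrix metalloproteinases and some ADAM proteases. Astrocytes make several of these inhibitors, and Serpina3n is widely used as a marker of reactive astrocytes.

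The cuprizone groups were male GFAP-Cre+/- Rpl22HA/wt mice, aged 8 to 9 weeks, that ate chow with 0.2% cuprizone for 5 weeks. Cuprizone is a copper chelator under which oligodendrocytes die and the corpus callosum loses myelin. The first group was taken at the end of feeding (5 weeks), the next after 0.5 weeks on normal chow (5.5 weeks) and the last after 2 weeks on normal chow (7 weeks). The mock groups were age-matched mice kept on a normal diet, labelled with the same genotype and taken at the same 3 times. All mice, mock included, carry a Cre driven by the GFAP promoter and 1 RiboTag allele, an Rpl22 ribosomal protein that gains an HA tag after Cre acts. HA-tagged ribosomes were pulled down from micro-dissected corpus callosum, and their RNA was sequenced in bulk. GFAP-Cre can also act in other cells of the astroglial lineage, and no library of unselected RNA was used here, so enrichment for astrocytes was not tested.

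The 17 libraries form 6 groups, and 9 of them hold independent counts, with totals of 20797535 to 30400048. In each of the other 8, between 46.6% and 96.2% of genes with 500 or more counts equal another library of the group plus an integer of 1 to 10. The lowest share is that of 5-week mock 1. These 8 were not used as samples. This leaves 3 cuprizone and 2 mock libraries at 5.5 weeks, and 1 library per group, with no replicate, at 5 and at 7 weeks. The 5-week libraries are labelled batch 1 and the others batch 2, so a difference between 5 weeks and the later times cannot be told apart from batch. The astrocyte marker list (Aqp4, Aldh1l1 and 3 others) summed to 3436 to 4203 CPM (read counts, scaled by TMM for library size) in the 5.5-week cuprizone libraries and to 3724 and 4158 CPM in mock. All 5 of its genes had counts in all 9 libraries. Mature oligodendrocyte markers summed to 17690 to 21630 CPM in the same cuprizone libraries and to 14620 and 15270 CPM in mock, and edgeR called Mog (adjusted p = 0.0195) and Mag (adjusted p = 0.0229) higher. The label of astrocyte RNA thus covers libraries in which transcripts of other cells are abundant. In bulk RNA, fewer cells of a type and less RNA per cell cannot be told apart.

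**Figure D1:**
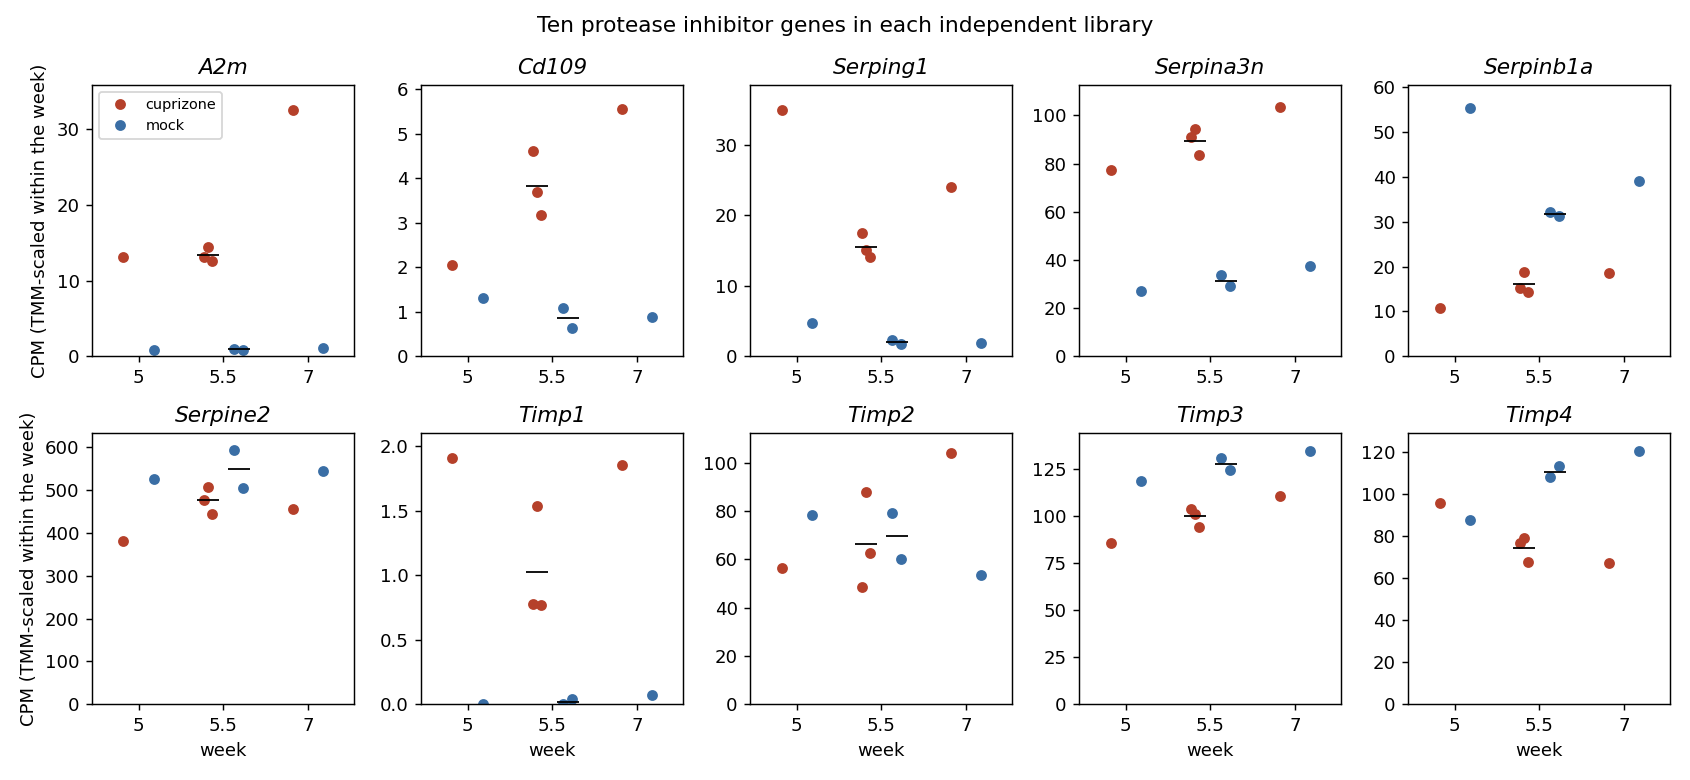
CPM of each of the 10 inhibitor genes (vertical axes, linear from 0) in every independent library at 5, 5.5 and 7 weeks, with cuprizone to the left of mock. Black lines are means at 5.5 weeks (n = 3 cuprizone and 2 mock). A2m, Cd109, Serping1, Serpina3n and Timp1 lie above mock of the same week in every cuprizone library, and Serpinb1a and Timp3 lie below it.

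Promoter windows of the members are shown because their CG content differs widely. RefSeq windows on GRCm38.p6, 250 bases before to 50 after the gene start, matched 6 of the 10 genes. The windows of Serpina3n (chromosome 12, plus strand, chr12:104406458-104406757), Timp1 (chromosome X, plus strand, chrX:20869916-20870215) and Timp3 (chromosome 10, plus strand, chr10:86300162-86300461) are shown 5′ to 3′ on the gene's strand, with each CG in capitals, as a serpin and a TIMP at least 2-fold higher at 5.5 weeks and a TIMP less than 2-fold from mock.
Serpina3n: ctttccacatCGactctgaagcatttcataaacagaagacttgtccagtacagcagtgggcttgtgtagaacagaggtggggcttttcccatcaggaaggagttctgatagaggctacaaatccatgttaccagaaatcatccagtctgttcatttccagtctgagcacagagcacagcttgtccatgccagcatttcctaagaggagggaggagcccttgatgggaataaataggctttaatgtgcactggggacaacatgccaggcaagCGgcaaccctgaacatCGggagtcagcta
Timp1: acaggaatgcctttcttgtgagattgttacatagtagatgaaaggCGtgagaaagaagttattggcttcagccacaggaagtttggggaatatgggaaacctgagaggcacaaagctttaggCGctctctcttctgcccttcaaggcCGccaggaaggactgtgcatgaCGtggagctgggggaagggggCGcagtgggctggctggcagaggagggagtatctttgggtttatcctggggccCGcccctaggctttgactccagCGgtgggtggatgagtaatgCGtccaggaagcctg
Timp3: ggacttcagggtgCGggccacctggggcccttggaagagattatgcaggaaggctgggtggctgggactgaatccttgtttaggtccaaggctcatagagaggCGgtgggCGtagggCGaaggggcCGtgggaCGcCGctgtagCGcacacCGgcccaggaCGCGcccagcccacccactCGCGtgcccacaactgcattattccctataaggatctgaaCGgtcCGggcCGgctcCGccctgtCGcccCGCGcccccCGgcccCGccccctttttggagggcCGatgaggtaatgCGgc
The Serpina3n window holds 3 CG pairs and the Timp1 window 8, against 24 in Timp3. Serpine2 holds 41, Timp2 holds 25 and Timp4 holds 2, and the median over all 32851 RefSeq windows of this length is 7. The other 4 genes, A2m, Cd109, Serping1 and Serpinb1a, have no window here, and no relation of CG content to the cuprizone contrast is read from 6 genes. The letters TTCNNNGAA, a form bound by STAT factors, and TGANTCA, an AP-1 form, both palindromic and so read on both strands at once, occur in none of the 6 windows. Over all windows they occur in 8.3% and 7.81%. The GC box GGGCGG, searched on both strands, occurs 6 times in Serpine2, 2 times in Timp3, 1 time each in Timp1 and Timp2, and in 35.66% of all windows. A match or its absence is a description of these letters only.

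Levels per kilobase of exon give the order of the genes. At 5.5 weeks Serpine2 stood highest at 57.4 CPM per kilobase in cuprizone and 66.1 in mock. In cuprizone Serpina3n came next at 43.4 CPM per kilobase, followed by Timp2 at 17.1, Timp4 at 12.6 and Timp3 at 12.2. In mock the same 4 genes lay close together, with Timp4 at 18.8, Timp2 at 17.9, Timp3 at 15.6 and Serpina3n at 15.2 CPM per kilobase, and each overlapped its neighbour in that order. Within cuprizone, Timp2, Timp4 and Timp3 overlapped their neighbours in turn, but Serpina3n stood clear of both Serpine2 and Timp2. Serpinb1a and Serping1 overlapped in cuprizone at 6.98 and 6.70 CPM per kilobase, whereas in mock they stood apart at 13.8 and 0.867. A2m, Cd109 and Timp1 were the lowest in both groups, at 1.91, 0.556 and 1.15 CPM per kilobase in cuprizone and 0.13, 0.123 and 0.0209 in mock.

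At 5.5 weeks 5 of the 10 members passed 2-fold upward in cuprizone (A2m, Cd109, Serping1, Serpina3n and Timp1) and 0 downward. Of the 16086 genes tested, 1.49% passed 2-fold upward and 0.51% downward. In the same 5 genes all cuprizone libraries lay above both mock libraries, and in 3 (Serpinb1a, Timp3 and Timp4) all lay below. Over all genes tested, 13.2% did not overlap with cuprizone higher and 14.8% with cuprizone lower. Because the members were selected on this contrast, nothing is read from their counts. At 5 weeks 8 members reached 5 CPM in at least 1 library. Of these, 3 were at least 2-fold higher (A2m, Serping1 and Serpina3n), against 9.07% of 11568 genes measured, and 1 was at least 2-fold lower (Serpinb1a), against 12%. At 7 weeks 9 members reached 5 CPM. Of these, 4 were at least 2-fold higher (A2m, Cd109, Serping1 and Serpina3n), against 13.8% of 12331 genes measured, and 1 was at least 2-fold lower (Serpinb1a), against 1.71%. Scaled by total counts without TMM, the 7-week counts were 5 higher, with Timp2 added, and 0 lower, since Serpinb1a had a log2 ratio of -0.87.

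**Figure D2:**
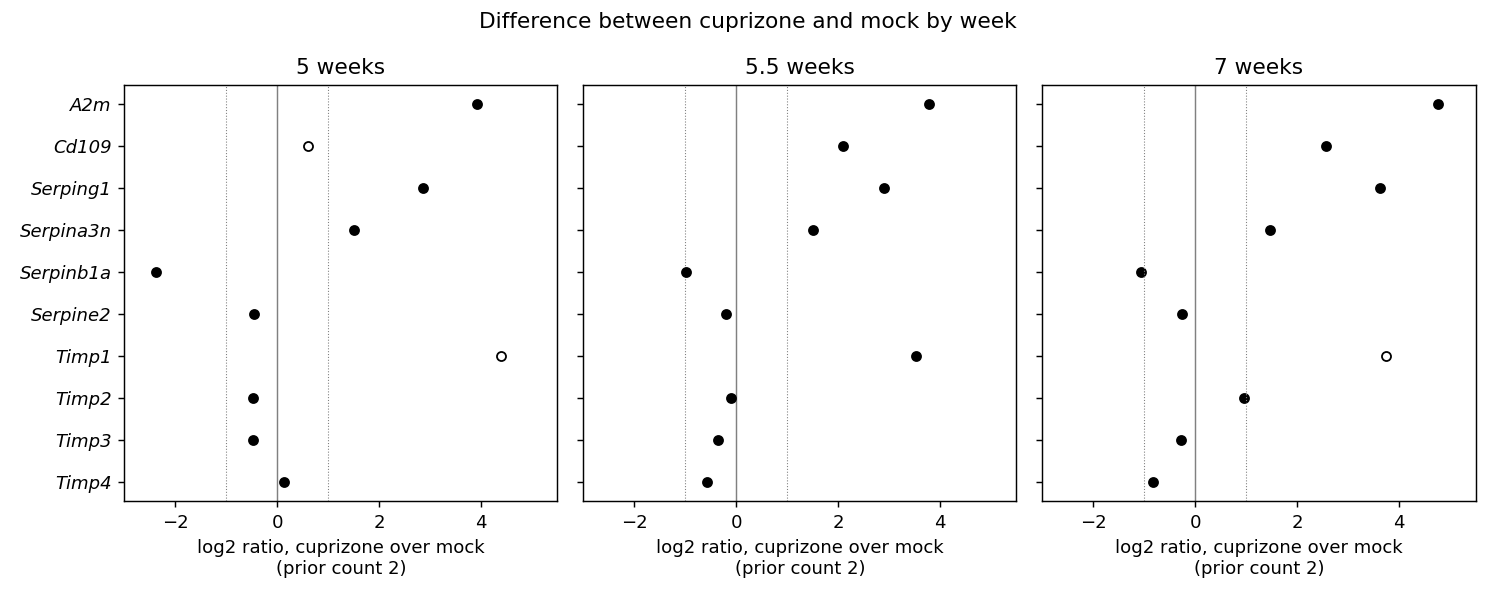
Log2 ratio of cuprizone over mock (horizontal axes, scaled CPM with a prior count of 2) for each of the 10 genes at 5, 5.5 and 7 weeks. Dotted lines mark 2-fold. Open circles, used at 5 and 7 weeks only, are genes under 5 CPM in both libraries of that week. All 5.5-week points are filled, although Cd109 and Timp1 were under 5 CPM in every library there. A2m, Serping1, Serpina3n and Timp1 lie to the right of the 2-fold line at all 3 times. Serpinb1a, Serpine2 and Timp3 lie left of 0 at all 3 times.

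A2m encodes alpha-2-macroglobulin, which traps proteases of all main classes in a cage. It had 13.2, 14.5 and 12.6 CPM in the 5.5-week cuprizone libraries, against 1.00 and 0.816 CPM in mock. All 3 cuprizone libraries were high and both mock libraries were near 1 CPM, with a log2 fold change of 3.87 ± 0.21 (SE). At 5 weeks it had 13.2 CPM in cuprizone and 0.779 CPM in mock, 16.9-fold higher (95% counting interval 10.2 to 30.0). At 7 weeks it had 32.6 CPM in cuprizone and 1.13 CPM in mock, 28.9-fold higher (20.3 to 42.5). The 7-week cuprizone library was the highest of the 9, with CPM scaled within each week. Among the libraries not used as samples, 5-week mock 1 had 5.82 CPM by total counts (137 counts, against 16 in mock 2). With the mean of all deposited libraries the 5-week log2 ratio of A2m was 1.88, against 3.92.

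Cd109 encodes a membrane-anchored relative of A2m that binds TGF-beta and dampens its signalling. It had 4.62, 3.70 and 3.18 CPM in the 5.5-week cuprizone libraries, against 1.07 and 0.631 CPM in mock, a log2 fold change of 2.16 ± 0.30 (SE). The groups did not overlap, although all 5 values were low. At 7 weeks Cd109 had 5.56 CPM in cuprizone and 0.881 CPM in mock, 6.31-fold higher (4.11 to 10.1). At 5 weeks it had 44 counts in cuprizone and 27 in mock, a 1.56-fold ratio whose interval (0.943 to 2.62) includes no difference. With the mean of all deposited libraries its 5-week log2 ratio was 1.23, against 0.60.

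Serping1 encodes the C1 inhibitor, which blocks the complement proteases C1r and C1s and plasma kallikrein. It had 17.5, 15.2 and 14.1 CPM in the 5.5-week cuprizone libraries, against 2.25 and 1.78 CPM in mock, and the log2 fold change was 2.95 ± 0.20 (SE). Every cuprizone library was well above both mock libraries. At 5 weeks it had 35.1 CPM in cuprizone and 4.73 CPM in mock, 7.42-fold higher (6.0 to 9.26). After 7 weeks the gene had 24.0 CPM in cuprizone and 1.87 CPM in mock, 12.8-fold higher (9.69 to 17.3). Cuprizone exceeded mock at every time, and both 5-week libraries were above their later counterparts. CPM were scaled within each week and the 5-week libraries are another batch, so that difference between weeks was not tested.

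Serpina3n encodes a secreted serpin that inhibits granzyme B and leukocyte elastase. It had 90.9, 94.2 and 83.6 CPM in the 5.5-week cuprizone libraries, against 33.5 and 29.2 CPM in mock, a log2 fold change of 1.51 ± 0.12 (SE). The groups did not overlap, and the mock level was already well above that of A2m, Cd109, Serping1 or Timp1 per kilobase. It was 2.86-fold higher at 5 weeks (2.60 to 3.15), with 77.5 CPM in cuprizone and 27.1 CPM in mock. By 7 weeks it was 2.75-fold higher (2.57 to 2.96), with 103.5 CPM in cuprizone and 37.6 CPM in mock. Its ratio moved little between the 3 times in the libraries used. Among those not used as samples, 5-week mock 1 had 39.3 CPM by total counts (925 counts), against 26.3 CPM (557 counts) in mock 2.

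Serpinb1a encodes an inhibitor of neutrophil elastase, cathepsin G and proteinase 3. It belongs to the serpin clade that lacks a classical secretion signal, and acts mainly inside cells or after release from them. It had 15.2, 18.8 and 14.3 CPM in the 5.5-week cuprizone libraries, against 32.1 and 31.3 CPM in mock, a log2 fold change of -0.98 ± 0.14 (SE). All cuprizone libraries were below both mock libraries. At 5 weeks it had 10.7 CPM in cuprizone and 55.4 CPM in mock, 5.20-fold lower (4.51 to 6.02). The 7-week libraries had 18.5 CPM in cuprizone and 39.0 CPM in mock, 2.11-fold lower (1.89 to 2.35). It was the member with the lowest ratio at all 3 times.

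Serpine2 encodes protease nexin-1, which inhibits thrombin and the plasminogen activators. It had 476.4, 507.9 and 443.3 CPM in the 5.5-week cuprizone libraries, against 592.2 and 503.7 CPM in mock, a log2 fold change of -0.20 ± 0.12 (SE). The groups overlapped. The cuprizone over mock ratio was 0.727 at 5 weeks (0.706 to 0.748) and 0.836 at 7 weeks (0.816 to 0.856). These intervals cover counting error only.

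Timp1 encodes the TIMP best known as inducible. It had 23, 34 and 20 counts in the 5.5-week cuprizone libraries, against 0 and 1 counts in mock. The summed counts, 77 in cuprizone and 1 in mock, gave a ratio of 55.2 with a counting interval of 9.62 to 2210. The gene was near the detection limit in mock, and all cuprizone libraries were low but above it. At 5 weeks it had 41 counts in cuprizone and 0 in mock, at least 13.1-fold higher against a floor of 3 counts in the mock library. Timp1 had 49 counts in cuprizone at 7 weeks and 2 in mock, a ratio of 26.3 (6.90 to 223.3). Timp1 lies inside an intron of Syn1 on the opposite strand and shares 0 of its 888 exonic bases with Syn1 exons.

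Timp2 encodes the inhibitor that also joins Mmp14 in activating pro-Mmp2. It had 48.6, 88.1 and 62.7 CPM in the 5.5-week cuprizone libraries, against 79.3 and 60.2 CPM in mock, a log2 fold change of -0.07 ± 0.22 (SE). The groups overlapped and the spread between libraries was wider than for Timp3 or Timp4. At 5 weeks the ratio of cuprizone over mock was 0.721 (0.668 to 0.777). At 7 weeks it was 1.95 (1.83 to 2.07), with 104.3 CPM in cuprizone and 53.6 CPM in mock. Timp2 was thus on opposite sides of mock at 5 and 7 weeks, each in 1 library per group, and that difference was not tested.

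Timp3 encodes the matrix-bound TIMP that inhibits Adam17 and aggrecanases as well as metalloproteinases. It had 103.7, 100.9 and 94.3 CPM in the 5.5-week cuprizone libraries, against 130.5 and 124.1 CPM in mock, a log2 fold change of -0.35 ± 0.10 (SE). Cuprizone lay below mock in every library. The ratio was 0.720 at 5 weeks (0.677 to 0.765) and 0.823 at 7 weeks (0.784 to 0.863). Timp3 lies within Syn3, on the opposite strand, and 1733 of its 8144 exonic bases are shared with Syn3 exons.

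Timp4 encodes a TIMP with high expression in brain and heart. It had 76.5, 79.0 and 67.7 CPM in the 5.5-week cuprizone libraries, against 107.9 and 113.2 CPM in mock, a log2 fold change of -0.57 ± 0.11 (SE). All cuprizone libraries were below both mock libraries. At 7 weeks it had 67.3 CPM in cuprizone and 120.2 CPM in mock, 1.79-fold lower (1.69 to 1.89), whereas at 5 weeks the ratio was 1.10 (1.03 to 1.17). Among the libraries not used as samples, 7-week cuprizone 1 had 98.8 CPM by total counts (2679 counts, against 1778 in cuprizone 2). On that scale 7-week cuprizone 2 had 72.1 CPM and mock 3 had 112 CPM. Timp4 lies within Syn2, on the opposite strand, sharing 90 of 5894 exonic bases. Whether strand was used in counting is not given in the sources used here, so reads of Timp3 or Timp4 and of their host genes could be mixed. The annotated span of Timp2 also overlaps Cep295nl, and that of Timp4 overlaps Gm17482. Shared exonic bases were not counted for these pairs. The host genes Syn1, Syn2 and Syn3 were not called by edgeR at 5.5 weeks (adjusted p = 0.842, 0.904 and 0.965). Among close relatives that could share reads with A2m, Serpina3n or Serpinb1a, Serpinb1b reached at most 1.62 CPM in a library and the other 11 (Pzp, Mug1, Mug2, Serpinb1c and 7 genes of the Serpina3 cluster) at most 0.433 CPM. The CPM of these relatives are by total counts.

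Markers of other cells also differed between groups, most of all in the 7-week cuprizone library. Microglia and macrophage markers (Cx3cr1, P2ry12 and 4 others) summed to 447.9 CPM in the 7-week cuprizone library and to 23.1 CPM in mock, and all 6 were at least 2-fold higher. In the same cuprizone library endothelial markers summed to 193.1 CPM, against 4.58 CPM in mock, and pericyte markers to 199.8 CPM, against 17.7 CPM in mock. This library also had 34576 genes with a count, against at most 23980 in the other 8. The part of these cells in the 7-week values of A2m, Cd109, Serping1, Timp1 and Timp2 was not tested. At 5.5 weeks microglia and macrophage markers summed to 19.6, 25.4 and 18.1 CPM in cuprizone, against 13.4 and 16.1 CPM in mock, and the sums did not overlap. None of the 6 was called by edgeR, DESeq2 or limma-voom, and 3 (Cx3cr1, Csf1r and C1qa, the last 2 named after their values were seen) were higher at an unadjusted edgeR p under 0.05. All 6 had counts in all 9 libraries. Endothelial markers summed to 2.63, 3.61 and 4.30 CPM in cuprizone, against 5.61 and 3.67 CPM in mock, and pericyte markers to 18.5, 22.0 and 22.6 CPM, against 21.3 and 16.9 CPM in mock. At 5 weeks microglia and macrophage markers summed to 35.0 CPM in cuprizone and 20.2 CPM in mock. Endothelial markers summed to 0.186 and 3.75 CPM at that time, and choroid plexus markers to 8.61 and 31.8 CPM. Choroid plexus markers summed to 26.8, 32.3 and 47.6 CPM in 5.5-week cuprizone, against 12.1 and 11.3 CPM in mock. Among them edgeR called Ttr higher (adjusted p = 0.00694), whereas limma-voom called 0 of the 4. Oligodendrocyte precursor markers summed to 162.4, 146.2 and 136.6 CPM in 5.5-week cuprizone, against 106.0 and 91.5 CPM in mock. Of these, edgeR called Gpr17 higher (adjusted p = 0.00595). Neuron markers summed to 6516, 6617 and 7309 CPM in 5.5-week cuprizone, against 6685 and 7282 CPM in mock, and none of the 4 was called by edgeR, DESeq2 or limma-voom or had an unadjusted edgeR p under 0.05. The part of these cells in the members' 5.5-week values was not tested. Fibroblast markers, including Col1a1 and Dcn, summed to 4.14 CPM in cuprizone, with 3 of the 4 at 0 and Dcn alone present, and to 8.57 CPM in mock at 5 weeks. At 5.5 weeks they summed to 19.5, 13.5 and 45.3 CPM in cuprizone, against 50.7 and 27.9 CPM in mock. They summed to 37.8 CPM in cuprizone and 21.4 CPM in mock at 7 weeks, where Dcn had 16.9 CPM in cuprizone and 19.2 CPM in mock and Col1a1 had 10.1 CPM in cuprizone and 0.599 CPM in mock.

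**Figure D3:**
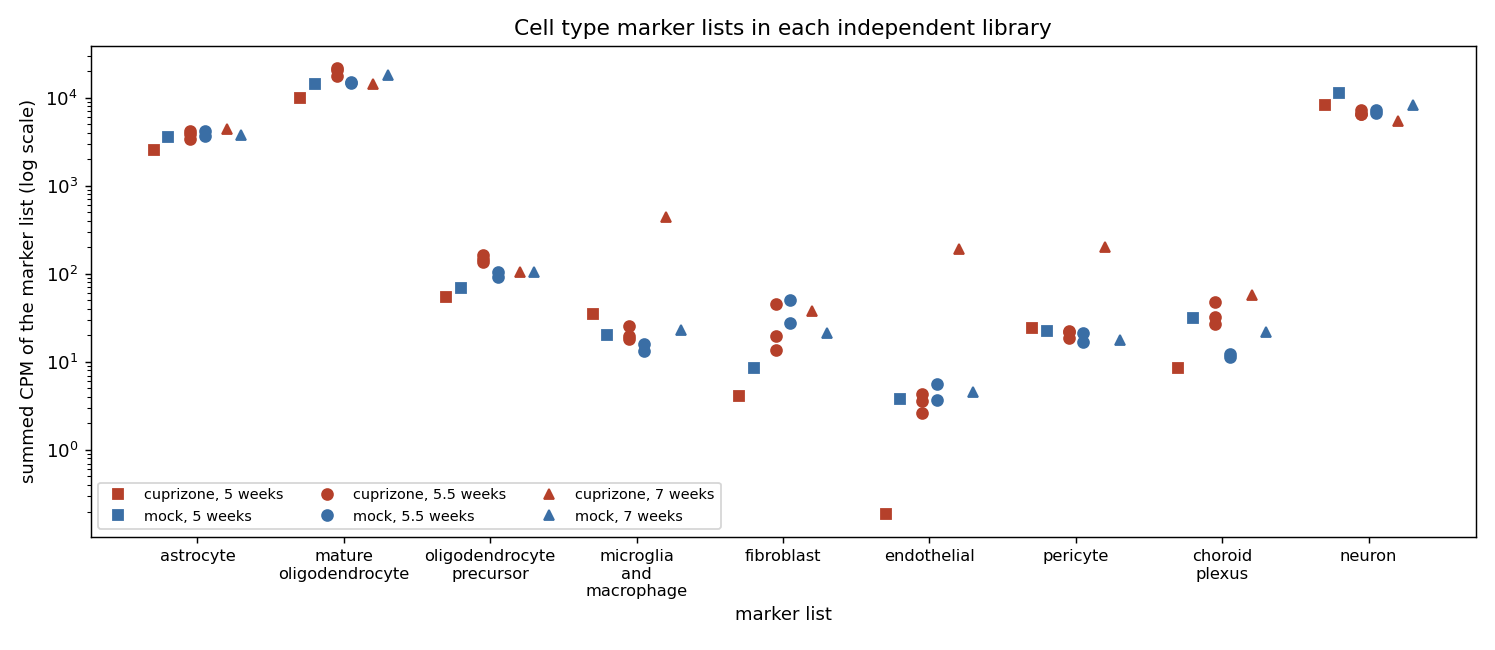
Summed CPM of 9 cell type marker lists (vertical axis, log scale) in each independent library, with cuprizone to the left of mock within each week. The 7-week cuprizone library stands above the others for microglia, endothelial and pericyte markers (447.9, 193.1 and 199.8 CPM).

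Genes whose pattern was most like that of A2m, Serpina3n or Serpinb1a were named by the smallest mean absolute difference of centred log2 CPM over the 9 libraries, among 20282 genes. For A2m these were F830016B08Rik (0.481), Fcgr2b (0.629) and Clec7a (0.662). Fcgr2b and Clec7a encode an inhibitory Fc receptor and a lectin of myeloid cells. For Serpina3n they were Tvp23bos (0.22), Parp9 (0.248) and Zfp97 (0.252), and for Serpinb1a Fdft1 (0.193), AC131323.2 (0.196) and Gm12326 (0.212). Several of these are near the floor: Tvp23bos lay between 0.0742 and 0.530 CPM over the 9 libraries, Zfp97 between 0.381 and 1.06, AC131323.2 between 0.326 and 2.00, and Gm12326 between 0.372 and 2.34. F830016B08Rik reached at most 2.65 CPM, and Parp9 lay between 2.58 and 9.31 CPM. Fcgr2b and Clec7a were highest in the 7-week cuprizone library, at 14.2 and 17.3 CPM. In the other libraries Fcgr2b had 0 to 4.70 CPM and Clec7a 0 to 1.35 CPM. Fdft1, the squalene synthase of cholesterol synthesis, had 74.8 CPM in 5-week cuprizone and 264.9 CPM in mock. The 9 libraries share their groups, so this likeness is a description.

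Other inhibitors, the proteases they act on and their receptors were examined as lists. At 5.5 weeks edgeR called 173 genes higher and 63 lower, 1.08% and 0.392% of the genes tested, with a median log2 fold change of 0.002 over all of them. Of 63 other inhibitors listed, 28 were tested, 3 were called higher and 0 lower, and the median was -0.03. At an unadjusted edgeR p under 0.05, 4 were higher and 4 lower, and DESeq2 and limma-voom each called 0 lower. Serpinf2, the plasmin inhibitor alpha-2-antiplasmin, averaged 2.69 ± 0.267 CPM in cuprizone and 0.499 ± 0.0767 CPM in mock (SD, n = 3 and 2), a log2 fold change of 2.42 (edgeR adjusted p = 0.00198). Aplp2, an amyloid precursor-like protein with Kunitz-bearing isoforms, averaged 857.6 ± 7.72 CPM in cuprizone and 512.5 ± 28.5 CPM in mock, a log2 fold change of 0.74 (edgeR adjusted p = 0.00534). Serpinf1, a serpin without known protease inhibition, rose by a log2 fold change of 0.88 (edgeR adjusted p = 0.049), a call lost in 7 of 14 alternatives. Cst3, cystatin C and the highest of the list, averaged 3054 ± 434.9 CPM in cuprizone and 3159 ± 246.3 CPM in mock and was not called.

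Of 60 extracellular proteases, 40 were tested at 5.5 weeks, 3 were called higher and 1 lower, with a median log2 fold change of 0.19. At an unadjusted edgeR p under 0.05, 10 were higher and 1 lower, and DESeq2 and limma-voom each called 3 higher and 1 lower. Plat, tissue plasminogen activator and a target of Serpine2, averaged 86.7 ± 13.2 CPM in cuprizone and 40.1 ± 10.1 CPM in mock (SD, n = 3 and 2; edgeR adjusted p = 0.00946). Without mock 3 that call was lost. Mmp19, a metalloproteinase, had a log2 fold change of 2.13 (edgeR adjusted p = 0.0313), and Adamts4, an aggrecanase made by oligodendrocytes, one of 0.89 (edgeR adjusted p = 0.0229). Both were lost in 3 of 14 alternatives. Htra1, a secreted serine protease, averaged 240.7 ± 18.5 CPM in cuprizone and 359.4 ± 4.21 CPM in mock (edgeR adjusted p = 0.0204), and lost its call in 4 of 14 alternatives. Mog and Mag, called higher in the same libraries, are markers of the cells that make Adamts4, and their part in its value was not tested.

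Of 20 receptors and partners, 17 were tested at 5.5 weeks and edgeR called 0, with a median log2 fold change of 0.11. At an unadjusted p under 0.05, 6 were higher and 0 lower, and DESeq2 and limma-voom each called 0. Lrp1, named after its values were seen as the receptor that clears A2m and serpin complexes, averaged 83.8 ± 14.5 CPM in cuprizone and 79.7 ± 12.7 CPM in mock (SD, n = 3 and 2; edgeR adjusted p = 0.909). It had 9.50 CPM in 5-week cuprizone and 61.4 CPM in mock. At 7 weeks it had 192.2 CPM in cuprizone and 78.2 CPM in mock. Lrp1 thus lay below mock at 5 weeks and above it at 7 weeks, each in 1 library per group.

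**Figure D4:**
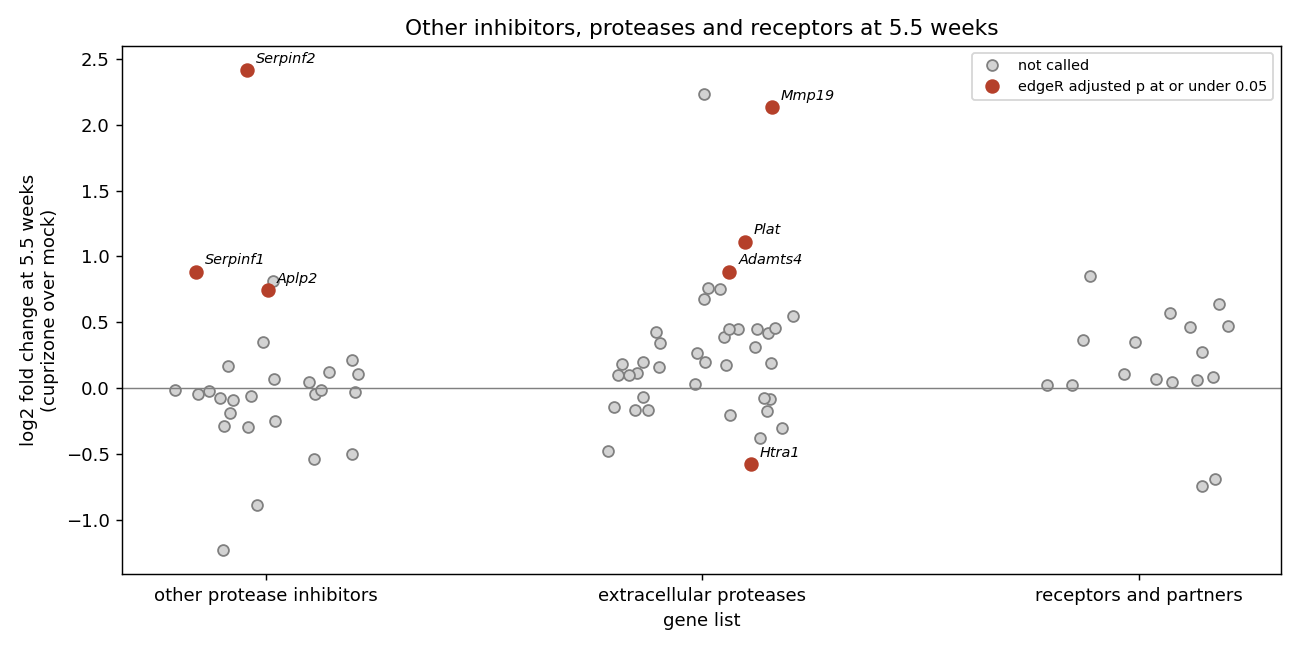
Log2 fold change of cuprizone over mock at 5.5 weeks (vertical axis) for the tested genes of 3 lists: 28 other inhibitors, 40 proteases and 17 receptors and partners. Named points passed edgeR at an adjusted p of 0.05, and they are 7 genes, of which Htra1 alone is below 0.

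At 5 weeks, 20 of the other inhibitors, 21 of the proteases and 10 of the receptors were measured (5 CPM or more in 1 library). At least 2-fold lower in cuprizone were 6, 8 and 6 of these measured genes, and 0 of them were higher. Over all genes measured, 9.07% were higher and 12% lower. Aplp2 had 203.7 CPM in cuprizone and 776.2 CPM in mock, and Htra1 had 98.8 and 354.0 CPM. Genes under 5 CPM in both libraries were not counted and went both ways. Serpinf2 had 99 counts in cuprizone and 0 in mock, Cst7 had 100 and 20, and Serpind1 had 0 and 92. At 7 weeks 24, 26 and 16 of the lists were measured. At least 2-fold higher were 5, 6 and 5, and at least 2-fold lower were 1, 1 and 0, beside 13.8% higher and 1.71% lower over all genes, in the library with raised vascular and microglial markers. Plat had 81.7 CPM in cuprizone and 35.9 CPM in mock, and Htra1 had 221.4 CPM in cuprizone and 434.4 CPM in mock. Htra1 lay below mock at all 3 times, whereas Plat lay below mock at 5 weeks (28.3 CPM in cuprizone and 44.2 CPM in mock) and above it later.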

How the data were processed

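Ribosome-bound RNA of GFAP-Cre RiboTag corpus callosum was sequenced in 17 libraries. The authors deposited whole-number values per Ensembl gene for all 17, and 9 columns were taken as independent read counts, with no normalization. Per the submitters' processing notes, the tools were STAR 2.5.4b, featureCounts 1.6.0 and FastQC 0.11.9, with builds GRCm38/mm10 and GRCm39/mm39 both named, so no gene coordinates from the counts are given. The strand setting is not given in the sources used here. Columns of the other 8 libraries repeat another in part: 46.6% to 96.2% of genes with 500 or more counts lie 1 to 10 above it, and at most 1.71% in pairs of the 9 used. They entered alternatives only. Total counts were 20797535 to 30400048.

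At 5.5 weeks genes passing filterByExpr (minimum count 10) were tested with edgeR 4.0.16 (R 4.3.3): TMM, quasi-likelihood F test, two-sided, Benjamini-Hochberg over all 16086 genes, threshold 0.05. The libraries are labelled biological replicates, and p-values measure the spread between them. CPM are TMM-scaled within the week. Those of paralogs and of libraries not used as samples, and the 5 CPM minimum below, are by total counts. At 5 and 7 weeks genes with 5 CPM or more in 1 library were compared by log2 ratio (prior count 2). Exact 95% (Clopper-Pearson) intervals cover counting error only, because 1 library per group shows no spread between libraries. They treat reads as independent molecules, which reads are not. No p is given at these weeks. DESeq2 1.42.0 and limma 3.58.1 were alternatives. The tests were tested on simulated data.

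Members, gene lists and libraries were chosen with earlier results of these data known. Named besides the members were listed genes called at 5.5 weeks and the highest of the other inhibitor and protease lists. Lrp1 was named from the receptor list after its values were seen. Also named were the first markers of some lists, nearest genes in pattern, nested hosts and paralogs. Promoters came from RefSeq.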

Additional observations from a re-analysis of the deposited data

Results flagged for a closer look

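The contrast changed direction or size between weeks in several genes, and since the 5-week libraries are another batch and the 5- and 7-week groups hold 1 library each, none of these differences was tested. The log2 ratio of Timp2 was 1.43 higher at 7 weeks than at 5 weeks. That of Timp4 was lower than at 5 weeks by 0.705 at 5.5 weeks and by 0.968 at 7 weeks (differences of -0.705 and -0.968). For Aplp2 it was 2.67 higher at 5.5 weeks than at 5 weeks, and it differed by -0.838 at 7 weeks from 5.5 weeks. For Plat it was 1.77 higher at 5.5 weeks and 1.83 higher at 7 weeks than at 5 weeks, and for Adamts4 1.52 higher at 5.5 weeks than at 5 weeks.

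In the 8 libraries not used as samples, 59 of 80 member values lie 1 to 10 counts above the library they partly repeat, and 3 are both at least 2-fold and more than 10 counts above it. By total counts, as for all CPM in this paragraph, Cd109 has 5.56 CPM in 5-week cuprizone 2, against 2.12 in cuprizone 1. Timp1 has 5.2 CPM in 5-week cuprizone 2, against 1.97 in cuprizone 1. A2m has 5.82 CPM in 5-week mock 1, against 0.754 in mock 2. Among smaller differences, Timp4 has 98.8 CPM in 7-week cuprizone 1, against 72.1 in cuprizone 2. Serpina3n has 39.3 CPM in 5-week mock 1, against 26.3 in mock 2. The cause was not tested.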

How the results depend on the processing

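Of the genes tested at 5.5 weeks, 173 were called higher and 63 lower. With no filter on low counts these were 381 and 162, with all 6 libraries as deposited 282 higher, and without 1 library in turn 49 to 189 higher and 16 to 86 lower. Higher calls were 57 without mock 1, 49 without mock 3 and 113 without cuprizone 1, and lower calls were 31 without mock 1, 16 without mock 3, 17 without cuprizone 1 and 24 without cuprizone 3. Other inhibitors called lower (0) were 2 with no filter, 1 with all 6 libraries, and receptors called higher (0) were 1 with either. Proteases called higher (3) ranged from 0 to 4 and lower (1) from 0 to 1 when 1 library was left out. Without a mock library, the lone one left was assumed to vary like the cuprizone libraries. Serpinf2 and Aplp2 kept their calls in all 14 alternatives. Replicate numbers are shared between groups, and same-numbered libraries deviate with correlations of 0.039 and -0.08. These are 2 pairs, too few to decide whether a shared number marks a pair, and the main fit used no block. With a replicate block 481 genes were higher and 269 lower, with 2 other inhibitors lower, 5 proteases higher and 1 receptor higher. Members at least 2-fold lower at 5.5 weeks ranged from 0 to 1 when 1 library was left out (1, Serpinb1a, without cuprizone 2). By total counts without TMM, which shifts the median gene by 0.198 (log2) at 7 weeks, 0 members were 2-fold lower there, and Timp2 had a log2 ratio of 1.16. With a minimum of 1 CPM, chosen after seeing the data, 4 members at 5 weeks and 5 at 7 weeks were 2-fold higher. With the mean of all deposited libraries the 5-week log2 ratio of A2m was 1.88, against 3.92, that of Cd109 1.23, against 0.60, and that of Timp1 5.09, against 4.40. Where only 1 library per group is independent, none could be left out. The causes were not tested.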
